A study of Mus musculus with 10 samples.

Results

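The 2 short-hairpin RNAs (shRNAs) against Smc3 were compared with each other on 4 of the 10 arrays of a study of mouse embryonic stem cells (ESCs). The members were the 2 arrays titled as SMC3 shRNA1 replicates and the 2 arrays titled as SMC3 shRNA2 replicates, chosen by those titles and not by any measured value. All the cells were of the ESC line CJ9, derived from strain 129SvJ, and were infected for 48 h in polybrene at 10 µg/mL with lentiviruses that carry puromycin resistance and either an shRNA or none (Empty Vector). Selection with 4 µg/mL of puromycin followed for 48 h in medium holding LIF, and total RNA was put on Mouse Genome 430 2.0 arrays (Affymetrix). The 2 Empty Vector arrays served as the reference for how far apart samples without any hairpin can lie. The Wapal shRNA arrays of the series entered only where stated. Each group had 2 arrays, which the labels call biological replicates without saying whether they came from separate infections, so p-values measure the spread between these samples, which may be technical. Each vector group is a selected pool of cells from 1 line, and no rescue of Smc3 and no vector with an unrelated hairpin was analysed here.

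Smc3 is a long coiled-coil ATPase that forms the cohesin ring together with Smc1a and Rad21. The ring holds sister chromatids together after replication and, in interphase, extrudes chromatin into loops that are stopped at Ctcf sites and that bring enhancers near promoters. In ESCs, cohesin with its loader Nipbl is known to sit at the enhancers of pluripotency genes. An shRNA of this vector type is cut by Dicer into a small RNA that guides cleavage of its target, and different hairpins against 1 transcript share that target but not their seed, which can also match other transcripts. Double-stranded RNA and viral nucleic acid are also known inducers of interferon response genes. The sequences of the 2 Smc3 hairpins were not used here.

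Smc3 itself was lost to nearly the same degree. Its brightest probe set (1450950_at) had an intensity of 187 and 176 with shRNA1, 223 and 189 with shRNA2, and 1536 and 1555 with Empty Vector. All 4 shRNA arrays lay far below both Empty Vector arrays, and the 2 hairpins lay side by side, with the highest shRNA1 array just under the lowest shRNA2 array. Relative to Empty Vector, the level fell by 3.09 on the log2 scale with shRNA1 (limma, adjusted p = 3.28e-05), a loss of 88.3%, and by 2.92 with shRNA2 (adjusted p = 9.21e-05), a loss of 86.7%. The difference between hairpins was -0.18 ± 0.12 (SE) in log2 (adjusted p = 0.412), with a 95% interval from -0.44 to 0.09, that is an intensity with shRNA1 of 0.736 to 1.07 times that with shRNA2. The dimmer probe set 1450951_at gave -0.14 ± 0.16 (adjusted p = 0.674).

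Across all 45037 probe sets the hairpins nevertheless differed widely. In the fit of the 6 arrays of Empty Vector and both Smc3 shRNAs, 2635 probe sets were higher with shRNA1 (5.85% of those tested) and 1819 were higher with shRNA2 (4.04%) at an adjusted p under 0.05 (limma, Benjamini-Hochberg). Of these, 435 and 167 differed over 2-fold, and 1048 were dim (mean log2 value under 6) with both hairpins. Both arrays of the higher hairpin lay at least 0.5 in log2 above both arrays of the lower one at 1525 probe sets with shRNA1 higher (3.39%) and at 893 with shRNA2 higher (1.98%). Read on the brightest probe set of each of 18193 genes, 1423 genes were higher with shRNA1 (7.82%) and 835 with shRNA2 (4.59%). The counts depended on having all 4 arrays: without any 1 of the Smc3 shRNA arrays, 563 to 943 probe sets were called higher with shRNA1 and 275 to 523 with shRNA2. Of the genes named below, Chac1, Dnajb4, Egln3, Fen1, Fos, Gins4, Gnas, H2bc21, Hspa1a, Magel2, Phgdh, Plet1, Pola1, Ppp1r3c, Sel1l and Stag3 lost the call whichever of the 4 was left out.

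The Empty Vector arrays also differed from each other, and partly along the same genes. The SD over probe sets of the log2 difference was 0.19 between the shRNA1 arrays, 0.192 between the shRNA2 arrays, 0.25 between the Empty Vector arrays and 0.317 between the means of the 2 hairpins. More than 2-fold differences were seen at 4, 5, 108 and 611 probe sets in the same order. Of the probe sets called higher with shRNA1, 75.5% were also higher on Empty Vector replicate 2 than on replicate 1, and of those called higher with shRNA2, 69.1% were lower there, against 57.5% of all probe sets with the same sign. The Empty Vector difference was at least 50% as large as the hairpin difference for 13.3% and 9.07% of the called probe sets. The 2 Wapal hairpins also differed along these genes. Of the probe sets higher with Smc3 shRNA1, 72.4% were higher with Wapal shRNA2 than with Wapal shRNA1. Of those higher with Smc3 shRNA2, 67.7% were lower there, against 55.9% of all with the same sign. Wapal shRNA2 minus shRNA1 was 2.22 for Gbp2, 1.29 for Krt19 and 2.39 for Adm, but 0.28 for Stx3 and 0.16 for Dusp4. The reason was not tested. Median intensities were 38.6 to 39.3 on these 6 arrays, and since RMA makes the arrays' distributions nearly the same, a shift shared by most genes would be hidden.

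Each hairpin difference was therefore set against the Empty Vector difference, replicate 2 minus replicate 1, in a fit of all 10 arrays. A departure from the Empty Vector difference was called towards shRNA1 at 229 probe sets (0.508%) and towards shRNA2 at 119 (0.264%). The spread was taken from the 4 shRNA groups. Of these 348 probe sets, 310 were also called between the hairpins, while the other 38 did not differ past the threshold between the hairpins themselves. The order of the Empty Vector arrays in this contrast was chosen with earlier results of these data known. Values below are given beside the Empty Vector difference for that reason, and the genes called in this comparison are said to lie past it. The test is of the signed difference, so a call does not mean that the hairpin difference was the larger. An Empty Vector difference of the opposite sign makes a call easier. Slc1a3 was called towards shRNA1 with -0.005 between the hairpins and -1.34 between the Empty Vector arrays. The 229 and 119 moved with the setting: left-out single Smc3 shRNA arrays gave 28 to 41 and 16 to 25.

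**Figure D1:**
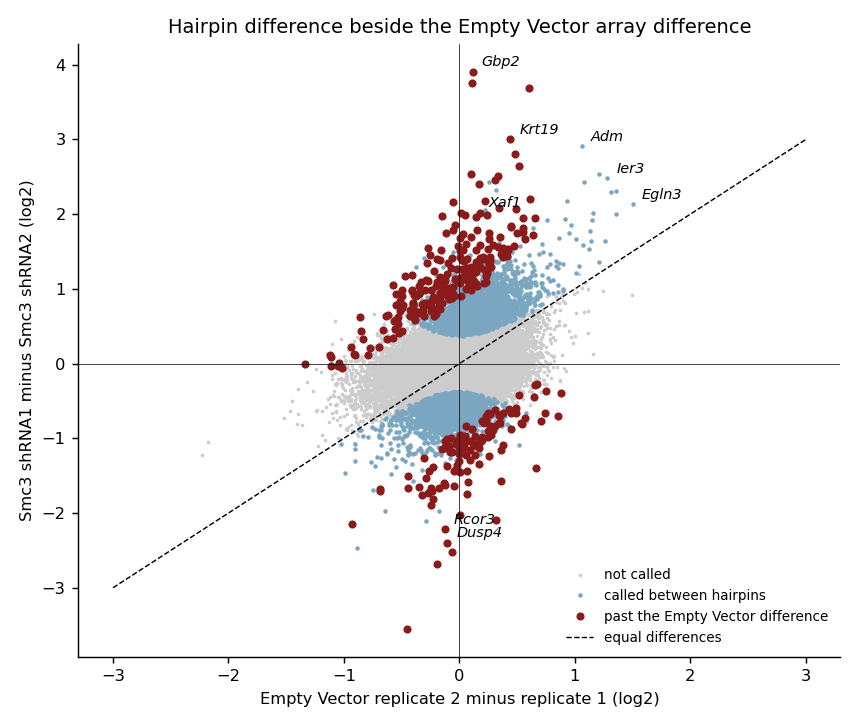
Each point is a probe set, with the Empty Vector difference on the x axis and the Smc3 shRNA1 minus shRNA2 difference on the y axis (both log2); red points, 348 in all, lie past the Empty Vector difference and the dashed line marks equal differences. Adm, Ier3 and Egln3 lie to the upper right, at larger Empty Vector differences than Gbp2, Krt19 and Xaf1. Gbp2 and Xaf1 lie close to an Empty Vector difference of 0 (0.12 and 0.18), and Krt19 lies at 0.44.

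Gbp2 had the widest gap between the arrays of the 2 hairpins among genes with a mean log2 value of at least 6 with the higher hairpin, and Gbp2b, Gbp3 and Gbp7 were among the 15 widest with shRNA1 higher. Guanylate-binding proteins are GTPases that interferon-gamma induces and that attack pathogen membranes. Gbp2 had an intensity of 501 and 379 with shRNA1, 26.8 and 31.5 with shRNA2, and 10.0 and 10.8 with Empty Vector (1418240_at). The 3 groups did not overlap: shRNA1 was highest, shRNA2 lay between, and Empty Vector was near the floor of the array. The hairpin difference was 3.90 ± 0.15 in log2, with a 95% interval from 3.56 to 4.25 (adjusted p = 0.000131), against 0.12 between the Empty Vector arrays. Relative to Empty Vector the adjusted p was 8.99e-06 with shRNA1 and 0.00165 with shRNA2. No detection call was used here, and the dim levels with shRNA2 and Empty Vector may hold background, so the size of these differences is uncertain.

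Its relatives followed. Gbp2b had 737 and 517 with shRNA1, 36.5 and 62.5 with shRNA2, and 7.78 and 11.8 with Empty Vector, a hairpin difference of 3.69 ± 0.29 (adjusted p = 0.000737). Gbp3 had 148 and 144 with shRNA1, 20.8 and 20.98 with shRNA2, and 11.3 and 15.7 with Empty Vector, a difference of 2.80 ± 0.15 (adjusted p = 0.000179). Gbp7 had 104 and 82.6 with shRNA1, 16.1 and 17.6 with shRNA2, and 14.6 and 18.1 with Empty Vector, so that only the shRNA1 arrays left the Empty Vector range. These genes are close paralogs, and probes of one can bind transcripts of another, so their separate levels are uncertain. All 4 lay past the Empty Vector difference.

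The promoters of Gbp2 and Gbp3 are shown because these 2 genes lead the interferon list. Each line is 300 bases of the RefSeq promoter (250 before to 50 after the start, build GRCm38.p6), and capitals mark the core of the interferon-stimulated response element, GAAANNGAA on either strand, where matches can overlap. The Gbp2 window lies at chr3:142620413-142620712 and the Gbp3 window at chr3:142559794-142560093, both on the + strand.
Gbp2: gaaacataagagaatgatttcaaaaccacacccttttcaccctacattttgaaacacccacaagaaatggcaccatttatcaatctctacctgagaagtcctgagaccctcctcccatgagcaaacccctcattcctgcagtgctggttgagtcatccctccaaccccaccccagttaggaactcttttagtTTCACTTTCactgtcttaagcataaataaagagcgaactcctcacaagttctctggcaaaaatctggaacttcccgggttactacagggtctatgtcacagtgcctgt
Gbp3: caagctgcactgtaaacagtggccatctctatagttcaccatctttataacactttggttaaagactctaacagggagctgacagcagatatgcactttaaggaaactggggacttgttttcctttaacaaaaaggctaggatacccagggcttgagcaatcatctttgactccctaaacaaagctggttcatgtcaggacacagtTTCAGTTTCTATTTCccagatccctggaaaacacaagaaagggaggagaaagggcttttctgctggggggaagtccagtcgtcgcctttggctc
The Gbp2 window holds 1 match and the Gbp3 window 2 overlapping matches. The core was found in 9.76% of 27025 genes with a promoter entry.
Of the 16 interferon list genes higher with shRNA1, 14 had an entry, of which 4 held the core, and of all 32 measured list genes with an entry, 16 did. A match is a description of letters in the window and not evidence of binding.

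The interferon and double-stranded RNA list as a whole, which includes Gbp2 and Gbp3, was divided. Of 39 measured genes, 16 were higher with shRNA1, 1 was higher with shRNA2 and 22 were not called. Of all genes, 7.82% were called higher with shRNA1 and 4.59% with shRNA2. The median difference of the list was 0.33, against 0.12 between the Empty Vector arrays and -0.00 over all genes. Irf1, a factor that drives many interferon response genes, had 1380 and 1128 with shRNA1, 376 and 395 with shRNA2, and 297 and 379 with Empty Vector, and Psmb8, a subunit of the immunoproteasome, had 170 and 135 with shRNA1, 36.1 and 22.7 with shRNA2, and 22.8 and 25.7 with Empty Vector. In both, the shRNA1 arrays stood alone and the shRNA2 arrays lay near Empty Vector. Irf1 differed by 1.70 ± 0.15 (adjusted p = 0.00109) and Psmb8 by 2.40 ± 0.21 (adjusted p = 0.00107).

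Zbp1, a sensor of Z-form nucleic acid, had 170 and 158 with shRNA1, 43.7 and 51.2 with shRNA2, and 53.6 and 59.5 with Empty Vector (1.79 ± 0.12, adjusted p = 0.000467). Ifi35 differed by 1.95 ± 0.18, and the peptide transporter gene Tap1 by 1.14 ± 0.12. Gbp2, Gbp3, Psmb8, Xaf1, Ifi35, Zbp1 and Irf1 lay past the Empty Vector difference, 7 of the 39. Of all 18193 genes, 111 did so towards shRNA1 and 53 towards shRNA2. Ddx58, which encodes the RNA sensor RIG-I, went the other way, with 180 and 192 with shRNA1, 442 and 356 with shRNA2, and 358 and 267 with Empty Vector. Type I interferon targets were mixed. Ifitm3 was higher with shRNA1 by 1.06 ± 0.13, with 1632 and 1478 beside 806 and 692 with shRNA2 and 1340 and 1556 with Empty Vector, so that shRNA2 was the group that left the Empty Vector range. Oasl2, Ifih1, Ifit2 and Isg20 were also called higher with shRNA1 but dim, by 0.73, 0.84, 0.55 and 0.52. Ifit1, at 8.36 to 12.7 on all 6 arrays, Irf7, at 16.9 to 23.6, and Oas1a, at 232 to 239 on the 4 shRNA arrays and 448 and 422 with Empty Vector, were not called.

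More genes of antigen processing and interferon-gamma response were found outside the list, and these were named after their values were seen. Parp9 had 398 and 336 with shRNA1, 108 and 121 with shRNA2, and 130 and 131 with Empty Vector. Its partner Dtx3l, the GTPase gene Igtp, the proteasome genes Psmb10 and Psme1, and the transporter gene Tap2 differed by 1.505, 1.84, 1.13, 1.25 and 1.35 in log2. Each lay past the Empty Vector difference. With dim probe sets left out, 10 of the list's genes were called higher with shRNA1, since 19 of its 39 genes were dim. Of the small RNA machinery (Drosha, Dicer, Argonautes and partners), 1 of 22 genes was called, beside 7.82% of all genes higher with shRNA1 and 4.59% with shRNA2. It was Prkra, a partner of Dicer and an activator of the kinase PKR, higher with shRNA1 by 0.83 ± 0.12.

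Epithelial keratin and junction genes formed the second group that was higher with shRNA1. Krt19 had an intensity of 312 and 237 with shRNA1, 30.0 and 38.5 with shRNA2, and 38.0 and 51.6 with Empty Vector. The shRNA1 arrays were the only ones out of the common range, at 8.01-fold over shRNA2 (3.002 ± 0.196 in log2, adjusted p = 0.000395), against 0.44 in log2 between the Empty Vector arrays. Cldn7, a tight junction claudin, had 296 and 294 with shRNA1, 47.9 and 55.8 with shRNA2, and 62.4 and 78.5 with Empty Vector (2.51 ± 0.14, adjusted p = 0.000179). Of 27 keratin, desmosome and junction genes, 13 were higher with shRNA1, 0 were higher with shRNA2 by limma (3 at an unadjusted p under 0.05) and 14 were not called. Of all genes, 7.82% were called higher with shRNA1 and 4.59% with shRNA2.

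Within the list, the simple-epithelium keratins Krt7, Krt8 and Krt18 differed by 1.55, 0.95 and 1.41, desmoplakin (Dsp) by 1.75, and Epcam by 0.46. Krt19, Cldn7, Krt7 and Krt18 lay past the Empty Vector difference. Dsp had 92 and 177 on the Empty Vector arrays beside 200 and 200 with shRNA1 and 65.7 and 54.2 with shRNA2, so Empty Vector replicate 2 lay close to shRNA1 and replicate 1 close to shRNA2. Leaving out a single Smc3 shRNA array lowered the 13 calls to 7 without shRNA1 replicate 1, 10 without its replicate 2, and 8 and 9 without replicates 1 and 2 of shRNA2.

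Other epithelial or membrane-traffic genes were named by the size of the separation. Stx3, a syntaxin of apical membrane fusion, had 381 and 338 with shRNA1, 66.6 and 57.4 with shRNA2, and 116 and 124 with Empty Vector (2.54 ± 0.12, adjusted p = 0.000141). On this probe set, 1434559_at, it was above Empty Vector by 1.58 with shRNA1 (adjusted p = 0.000402) and fell by 0.95 with shRNA2 (adjusted p = 0.00371). All 4 of its probe sets were higher with shRNA1 than with shRNA2, by 1.04 to 2.54, but on 1425530_a_at shRNA2 lay above Empty Vector too, with 92.3 and 82.0 against 73.3 and 57.6. Tmem30b, a flippase subunit, had 542 and 542 with shRNA1, 82.7 and 90.2 with shRNA2, and 65.7 and 94.0 with Empty Vector (2.65 ± 0.16). The potassium channel gene Kcnk1 had 577 and 575, 174 and 181, and 286 and 307, and Ap1m2, the adaptor subunit of epithelial sorting, had 342 and 321, 90.9 and 109, and 160 and 163, in the same order of groups. Both lay above both Empty Vector arrays with shRNA1 and below both with shRNA2.

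Markers of trophectoderm, the epithelium of the blastocyst that also uses these keratins, were read beside this group. Of 22 measured, 6 were higher with shRNA1 (4 of them the keratins above, with Plet1 and Rhox6) and 0 with shRNA2 by limma (3 at an unadjusted p under 0.05). The shares of all genes were 7.82% and 4.59%. The summed intensity of the 22 was 1965 to 2153 with shRNA1, 1276 to 1305 with shRNA2, and 1440 and 1716 with Empty Vector. The regulators Cdx2, Elf5 and Gata3 were dim on all 6 arrays, at 25.9 to 37.7, 8.11 to 11.2 and 7.62 to 10.9. The cells were gelatin-adapted per the methods. Fibroblast (feeder cell) markers summed to 6946 to 7093 with shRNA1, 6169 to 8010 with shRNA2, and 5539 and 6422 with Empty Vector, with Col1a1 at 17.5 to 22.4. Of the 28, 2 were called, Pdgfrb and Cald1, both higher with shRNA1, which is near the 7.82% of all genes. Pou5f1, the defining ESC factor, was at 7572 to 8887 on all 6 arrays. The part of other cells in the keratin difference was not tested.

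**Figure D2:**
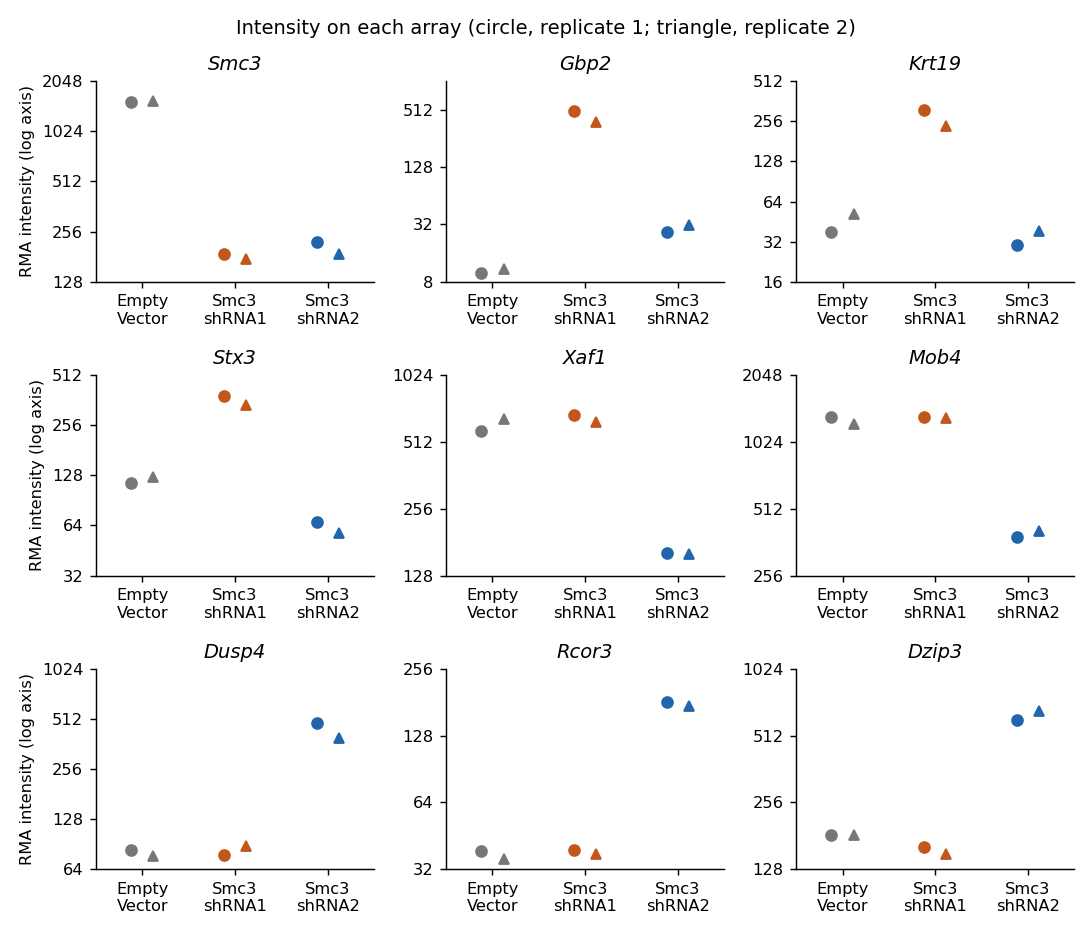
RMA intensity (log axis) of 9 genes on each of the 6 arrays, with Empty Vector in grey, Smc3 shRNA1 in orange and Smc3 shRNA2 in blue. Smc3 is alike with both hairpins. Gbp2, Krt19 and Stx3 are highest with shRNA1, and Xaf1 and Mob4 are low with shRNA2 alone. Dusp4, Rcor3 (on probe set 1425352_at) and Dzip3 are high with shRNA2 alone.

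Hypoxia response genes, the targets of the factor HIF-1 that are induced when prolyl hydroxylases lack oxygen, had the largest median difference of the 28 lists. Of 31 genes, 21 were higher with shRNA1, 0 were higher with shRNA2 by limma (0 also at an unadjusted p under 0.05) and 10 were not called, with a median of 0.98. The shares of all genes were 7.82% and 4.59%. At an unadjusted p under 0.05, limma gave 10890 of 45037 probe sets in either direction. The Empty Vector arrays differed along the same genes: 28 of the 31 were higher on replicate 2, with a median of 0.35. Adm, the vasodilator adrenomedullin, had 703 and 482 with shRNA1, 51.6 and 116 with shRNA2, and 13.8 and 28.7 with Empty Vector (2.91 ± 0.42, adjusted p = 0.00528), with 1.06 between the Empty Vector arrays.

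Egln3, a prolyl hydroxylase that HIF itself induces, had 943 and 763 with shRNA1, 147 and 252 with shRNA2, and 129 and 365 with Empty Vector (2.14 ± 0.43, adjusted p = 0.0184). Here shRNA1 lay above everything, while the shRNA2 arrays lay within the range of the Empty Vector arrays, which themselves differed by 1.501. Ndrg1 and Bhlhe40 differed by 2.29 and 2.31 between hairpins and by 1.31 and 1.36 between Empty Vector arrays. Past the Empty Vector difference, 1 of the 31 was called, beside 111 of all 18193 genes towards shRNA1 and 53 towards shRNA2. It was Car12, a carbonic anhydrase, which had 126 and 136 with shRNA1, 40.5 and 46.7 with shRNA2, and 33.6 and 41.2 with Empty Vector. Hif1a mRNA was 1852 to 2110 on all 6 arrays. The replicates also differed within each hairpin, and without shRNA1 replicate 1 or shRNA2 replicate 1 only 3 of the 21 calls were made, against 9 and 6 without replicates 2.

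The promoters of Egln3 and Ankrd37, which had the same pattern (1.92 ± 0.28 between hairpins, 0.76 between Empty Vector arrays), are shown for the HIF-binding core ACGTG, in capitals on either strand. They lie at chr12:54203825-54204124 and chr8:45999801-46000100 of GRCm38.p6, both on the - strand, and are printed in the direction of transcription.
Egln3: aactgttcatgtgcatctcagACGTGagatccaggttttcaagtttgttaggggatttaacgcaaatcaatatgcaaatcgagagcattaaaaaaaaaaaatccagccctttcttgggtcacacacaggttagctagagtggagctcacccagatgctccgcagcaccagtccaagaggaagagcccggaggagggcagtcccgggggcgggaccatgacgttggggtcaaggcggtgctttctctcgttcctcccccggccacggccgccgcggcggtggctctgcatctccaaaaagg
Ankrd37: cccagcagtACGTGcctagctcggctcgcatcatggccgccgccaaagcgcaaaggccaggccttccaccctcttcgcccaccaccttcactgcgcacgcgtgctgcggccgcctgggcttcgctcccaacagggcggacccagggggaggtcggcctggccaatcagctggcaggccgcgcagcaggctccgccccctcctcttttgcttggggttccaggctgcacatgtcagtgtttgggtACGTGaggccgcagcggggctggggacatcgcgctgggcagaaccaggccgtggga
Egln3 holds 1 match and Ankrd37 2. Of the 18 hypoxia list genes higher with shRNA1 that have an entry, 14 held the core, against 21.8% of all genes with an entry. Of all 26 measured list genes with an entry, 19 did, so it was found in members that were not called as well.

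Glycolysis genes, many of which HIF-1 also induces, differed less. Of 27 genes, 9 were higher with shRNA1 and 0 with shRNA2 by limma (18 and 0 at an unadjusted p under 0.05), beside 7.82% and 4.59% of all genes. The median was 0.46 between hairpins and 0.40 between Empty Vector arrays. Of the 27, 0 lay past the Empty Vector difference. Of all 18193 genes, only 111 did so towards shRNA1 and 53 towards shRNA2, so 0 does not set this list apart. Aldoc had 1179 and 996 with shRNA1, 228 and 315 with shRNA2, and 208 and 464 with Empty Vector. Pygl, the liver glycogen phosphorylase, had 108 and 84.7 with shRNA1, 16.8 and 18.5 with shRNA2, and 19.1 and 40.4 with Empty Vector. Of 30 immediate early and AP-1 genes, 8 were higher with shRNA1, 1 was higher with shRNA2 and 21 were not called, beside 7.82% and 4.59% of all genes. The difference was above 0 for 20 of the 30, with a median of 0.39 against 0.18. Of the 30, 0 lay past the Empty Vector difference, beside the same 111 and 53 of all genes. Ier3 differed by 2.48 ± 0.34 with 1.28 between the Empty Vector arrays, and Fos by 0.98 ± 0.25 with 0.90. Myc, a growth factor-induced transcription factor, went the other way, with 62.8 and 54.2 with shRNA1, 138 and 122 with shRNA2, and 274 and 214 with Empty Vector.

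**Figure D3:**
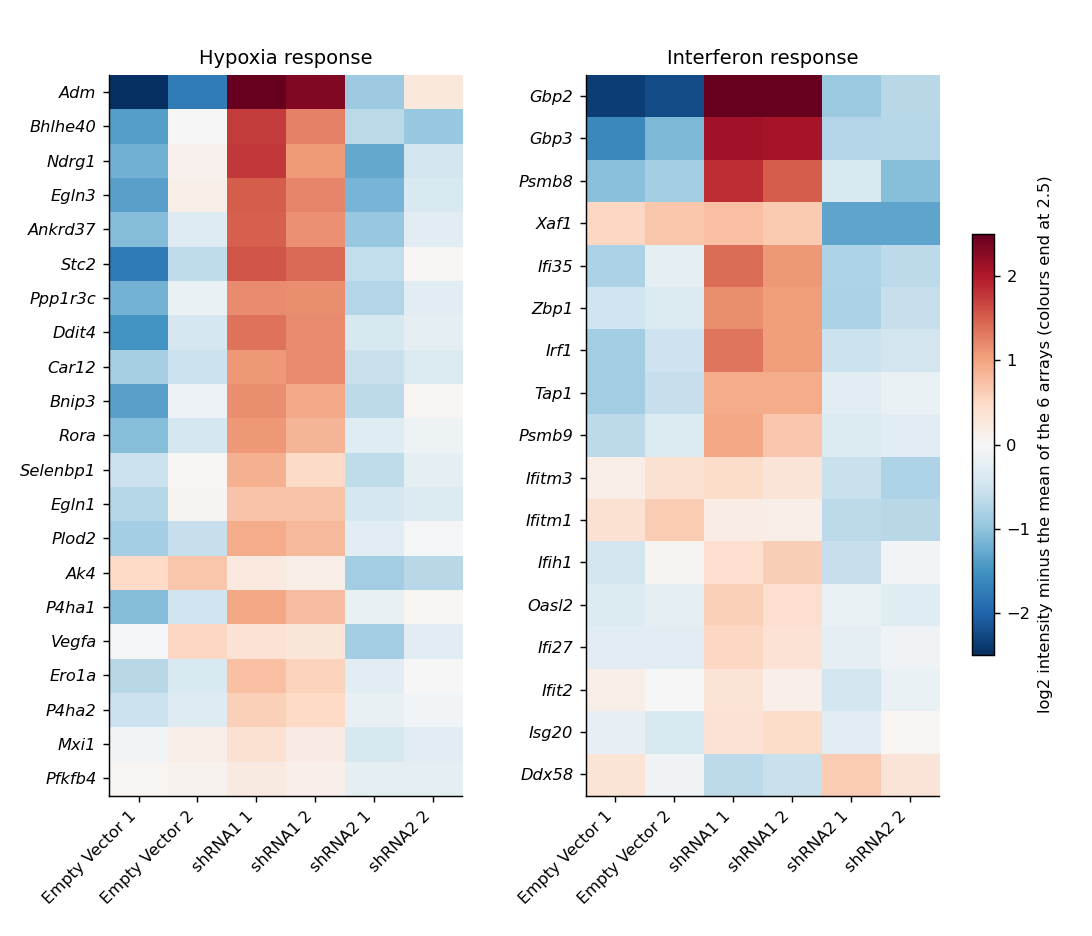
Members of the hypoxia list (left, 21 genes) and the interferon list (right, 17 genes) that were called between the hairpins, as log2 intensity minus the mean of the 6 arrays, with colours ending at 2.5. Both shRNA1 arrays lie above all other arrays for 19 of the 21 and 12 of the 17 genes, and Empty Vector replicate 1 is the lowest array for 15 and 7. The genes were chosen by the call between the hairpins, so these counts follow in part from that choice. The share over all genes was not counted.

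Cholesterol and fatty acid synthesis genes were higher with shRNA1 in 11 of 29 and higher with shRNA2 in 0 by limma (16 and 2 at an unadjusted p under 0.05). The shares of all genes were 7.82% and 4.59%. The median of the list was 0.34 against 0.15 between Empty Vector arrays. Stard4, a cholesterol carrier, had 651 and 605 with shRNA1, 323 and 321 with shRNA2, and 419 and 476 with Empty Vector (0.96 ± 0.11). Fdft1, squalene synthase, differed by 0.89 ± 0.12 and Hmgcs1 by 0.63 ± 0.12. For Stard4 and Fdft1 the shRNA1 arrays lay above both Empty Vector arrays and the shRNA2 arrays below both. None of the 29 lay past the Empty Vector difference. Of all 18193 genes, only 111 did so towards shRNA1 and 53 towards shRNA2, so this does not set the list apart.

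Cell cycle lists differed in small steps, and the counts here stand beside 7.82% of all genes higher with shRNA1 and 4.59% higher with shRNA2. Of 41 G2 and mitosis genes, 9 were higher with shRNA1 and 0 with shRNA2 by limma (14 and 1 at an unadjusted p under 0.05), with a median of 0.21. Sgo2a, shugoshin 2, which protects centromeric cohesin, had 3056 and 2902 with shRNA1, 1576 and 1528 with shRNA2, and 2125 and 2491 with Empty Vector (0.94 ± 0.11). Of 40 S phase and replication genes, 2 were higher with shRNA1 and 4 with shRNA2, with a median of -0.19, while the Empty Vector arrays gave 0.08; Cdc6, Gins4, Rfc3 and Fen1 were higher with shRNA2, and Pola1 and Tk1 with shRNA1. Of 24 p53 targets, 6 were higher with shRNA1, among them Mdm2 (0.60 ± 0.10), Fas (1.36 ± 0.18) and Sesn1 (0.70 ± 0.10), while Sesn2, which also belongs to the amino acid stress response, was higher with shRNA2 (-0.58 ± 0.12). Ribosome biogenesis and Hox genes had 0 of 38 and 0 of 33 calls by limma in either direction (8 and 3 at an unadjusted p under 0.05).

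**Figure D4:**
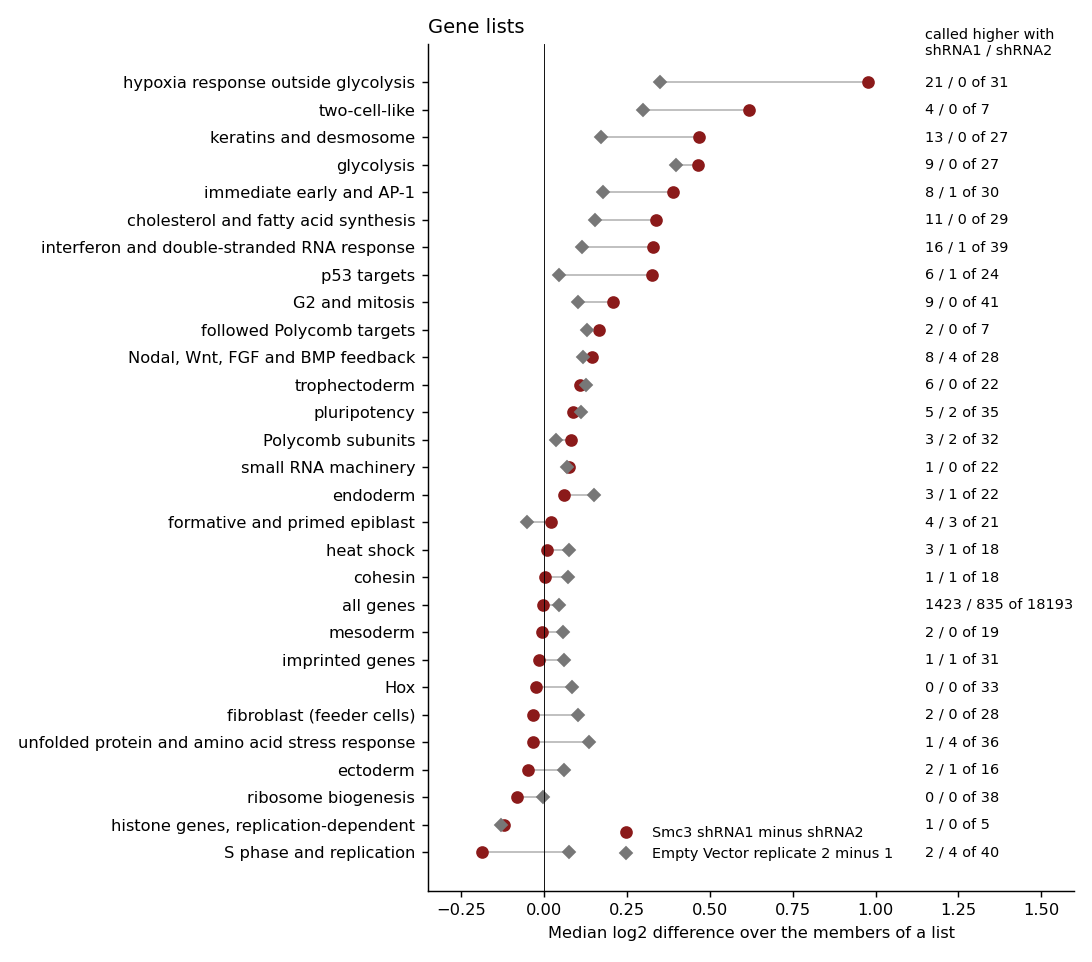
Median log2 difference of the members of each of 28 gene lists and of all 18193 genes, between Smc3 shRNA1 and shRNA2 (red circles) and between Empty Vector replicates 2 and 1 (grey diamonds); the counts at the right are members called higher with shRNA1 or with shRNA2. The hypoxia list lies furthest to the right with 0.98, and in the glycolysis list both medians are close.

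In the other direction, genes high with shRNA2 alone led. Dusp4, a phosphatase that switches off ERK, had 486 and 391 with shRNA2, 78.0 and 87.9 with shRNA1, and 83.2 and 77.4 with Empty Vector. The shRNA1 arrays could not be told from Empty Vector (0.05 in log2, adjusted p = 0.895), and the shRNA2 arrays lay 2.44 above (adjusted p = 0.00018); the hairpin difference was -2.39 ± 0.13 (adjusted p = 0.000194). Gm7008 had 102 and 114 with shRNA2, 16.7 and 16.8 with shRNA1, and 20.97 and 18.3 with Empty Vector (-2.68 ± 0.12). Dzip3, an RNA-binding ubiquitin ligase, had 604 and 660 with shRNA2, 161 and 149 with shRNA1, and 182 and 182 with Empty Vector (-2.03 ± 0.11, adjusted p = 0.000176). On 3 of its 6 probe sets Dzip3 lay past the Empty Vector difference.

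The same pattern held for several further genes named by the rule. Etfrf1, an electron transfer flavoprotein regulator, had 1858 and 2052 with shRNA2, 599 and 629 with shRNA1, and 688 and 580 with Empty Vector. Chid1, a chitinase-domain protein, had 519 and 569, 180 and 187, and 138 and 178 in that order, and the transcription factor gene Cebpd had 108 and 115, 31.2 and 32.4, and 44.5 and 37.9. In each, shRNA1 and Empty Vector were near each other and shRNA2 was above both. A second probe set of Chid1 (1418902_at) gave -0.09 ± 0.13 (adjusted p = 0.728), with 109 and 101 with shRNA1 and 101 and 125 with shRNA2, and dim second probe sets of Etfrf1 and Cebpd gave -0.18 and -0.08, none of them called. Slc7a7, an amino acid transporter, and Pcdh8, a protocadherin, also separated (-1.98 ± 0.19 and -1.98 ± 0.22), but missed the threshold past the Empty Vector difference. Nt5e, the surface nucleotidase CD73, had on probe set 1428547_at 122 and 137 with shRNA2, 38.97 and 45.2 with shRNA1, and 95.6 and 87.5 with Empty Vector, but its other probe sets did not differ past the threshold (0.01 and -0.04).

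A pair of further probe sets showed the same pattern, but the annotation gives them to several genes, so no gene is named for them. Probe set 1421682_a_at had 612 and 644 with shRNA2, 63.0 and 45.5 with shRNA1, and 71.2 and 51.9 with Empty Vector. Probe set 1421683_at had 894 and 986 with shRNA2, 154 and 173 with shRNA1, and 179 and 171 with Empty Vector.

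A further set was low with shRNA2 alone. Xaf1, an interferon-inducible inhibitor of XIAP, had 161 and 160 with shRNA2, 678 and 628 with shRNA1, and 574 and 650 with Empty Vector. The shRNA1 arrays stayed within 0.10 of Empty Vector in log2 (adjusted p = 0.686), and shRNA2 fell by 1.93 (adjusted p = 0.000182). Mob4, a subunit of the STRIPAK phosphatase complex, had 382 and 405 with shRNA2, 1330 and 1312 with shRNA1, and 1329 and 1225 with Empty Vector (1.75 ± 0.11, adjusted p = 0.000287). Cryab, a small heat shock protein, had 33.5 and 31.8, 65.3 and 75.5, and 79.8 and 73.3 in that order.

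Srsf3, a splicing factor of the SR family, was noticed among the probe sets past the Empty Vector difference after their values were seen. Its probe set 1438215_at had 43.5 and 58.8 with shRNA2, 150 and 128 with shRNA1, and 164 and 138 with Empty Vector. All 6 of its probe sets were higher with shRNA1, by 0.42 to 1.45, and 4 lay past the Empty Vector difference. The brightest, 1416150_a_at, had 4005 and 4038 with shRNA2, 5251 and 5538 with shRNA1, and 6036 and 5904 with Empty Vector, so the size of the loss depended on the probe set.

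To sort the probe sets past the Empty Vector difference, each hairpin was read against a different Empty Vector array, shRNA1 against replicate 2 and shRNA2 against replicate 1, so that the values of both share no array. Of the 229 probe sets towards shRNA1, 96 were over 1.5-fold above with shRNA1 alone, 93 were over 1.5-fold below with shRNA2 alone, 10 were above and 3 below with both, and 16 went in opposite directions. Of the 119 towards shRNA2, 91 were above with shRNA2 alone, 17 below with shRNA1 alone and 4 went in opposite directions. The remaining 11 and 7 stayed within 1.5-fold with both hairpins. Over all probe sets, 2.14% were above with shRNA1 alone and 2.65% below with shRNA2 alone. A further 2.15% were above with shRNA2 alone and 1.05% below with shRNA1 alone, while 89.9% stayed within 1.5-fold with both. The members were called on the difference between the same 2 values by which they are sorted here. Their shares therefore follow in part from that choice, and were not tested.

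**Figure D5:**
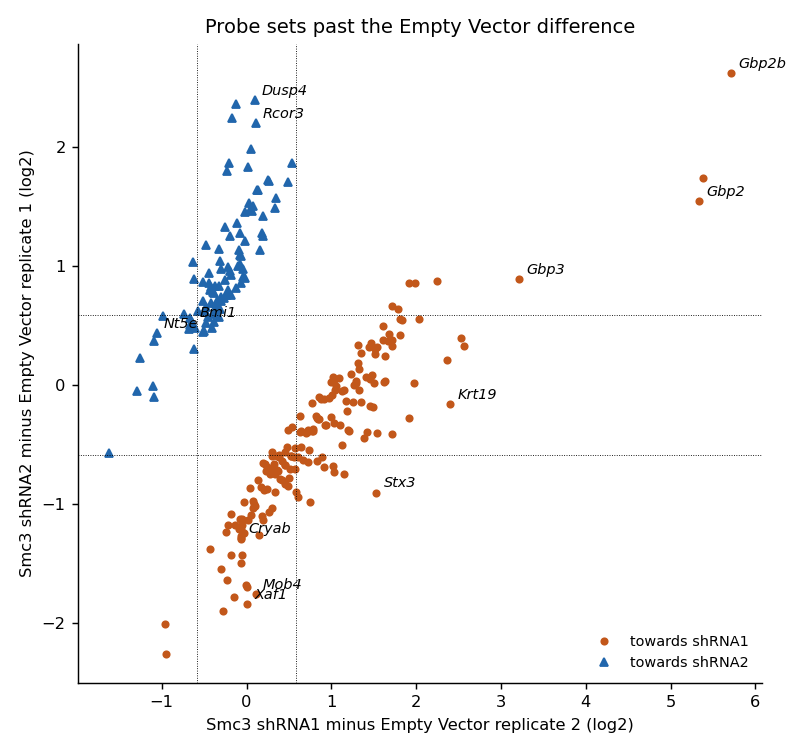
Each point is 1 of the 285 probe sets with 1 gene symbol that lie past the Empty Vector difference, with Smc3 shRNA1 minus Empty Vector replicate 2 on the x axis and Smc3 shRNA2 minus Empty Vector replicate 1 on the y axis (log2); dotted lines mark 1.5-fold. Gbp2, Gbp2b and Gbp3 lie above 0 on both axes. Dusp4 and Rcor3 (on probe set 1425352_at) are high on the y axis alone, and Xaf1 and Mob4 are low on the y axis alone.

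Probe sets of a single gene did not always move together. Of 568 genes with at least 2 called probe sets, 59 had calls in opposite directions. Rcor3, a subunit of a corepressor complex with Lsd1, is the clearest among the genes named by size: 1425352_at had 182 and 174 with shRNA2, 39.02 and 37.6 with shRNA1, and 38.9 and 35.6 with Empty Vector (-2.22 ± 0.10, adjusted p = 0.000141). Its probe set 1428342_at went the other way, with 56.7 and 52.2 with shRNA2, 101 and 108 with shRNA1, and 111 and 98.9 with Empty Vector (0.94 ± 0.11, adjusted p = 0.00277). The brighter 1428343_at was also higher with shRNA1, with 89.2 and 101 with shRNA2, 153 and 168 with shRNA1, and 146 and 146 with Empty Vector (0.755 ± 0.112, limma, adjusted p = 0.00583). Its probe sets 1432232_at, 1443922_at and 1444364_at were not called. On 1425352_at and 1428342_at, shRNA1 stayed at the Empty Vector level.

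Jam2, a junctional adhesion molecule, had the strongest opposition of the 59. Probe set 1431417_at had 332 and 353 with shRNA1 and 110 and 92.3 with shRNA2 (1.77 ± 0.18), and probe set 1436568_at had 171 and 193 with shRNA1 and 546 and 483 with shRNA2 (-1.50 ± 0.16). The bright probe set 1449408_at differed by -0.26 ± 0.10 and was not called. For Mob4, the probe set 1423167_at, the brightest of 3, had 2446 and 2626 with shRNA1 and 2192 and 2471 with shRNA2 (0.12 ± 0.12, adjusted p = 0.595), while 1423168_at followed the loss above (1.51 ± 0.11). Which transcripts these probe sets read was not determined here.

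Of 35 pluripotency genes, 5 were higher with shRNA1 and 2 with shRNA2, beside 7.82% and 4.59% of all genes, with a median of 0.09 against 0.11 between the Empty Vector arrays. Klf4, a naive-state factor, had 2584 and 2849 with shRNA1, 1342 and 1184 with shRNA2, and 2976 and 3447 with Empty Vector (1.11 ± 0.12, adjusted p = 0.00226), and Nanog had 4770 and 4753, 3439 and 3384, and 6366 and 6874 in that order. Both were lowest with shRNA2, without overlap. Nr0b1, a nuclear receptor of the ESC network, was lowest with shRNA1, with 800 and 797 beside 1652 and 1415 with shRNA2 and 1878 and 1786 with Empty Vector. Of 21 formative and primed epiblast genes, 4 were higher with shRNA1 and 3 with shRNA2.

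Of 28 Nodal, Wnt, FGF and BMP feedback genes, 8 were higher with shRNA1 and 4 with shRNA2, beside 7.82% and 4.59% of all genes. The hedgehog receptor gene Ptch1 had 2189 and 2261 with shRNA1, 858 and 794 with shRNA2, and 521 and 675 with Empty Vector (1.43 ± 0.14, adjusted p = 0.00139), and Lefty2, a Nodal target and inhibitor, had 1817 and 1862, 821 and 899, and 333 and 510. In both, each hairpin lay above Empty Vector and shRNA1 above shRNA2. The ERK-responsive genes Etv4, Spry4 and Spred1 were higher with shRNA2, as was Dusp4, by -1.13 ± 0.14, -0.83 ± 0.13 and -0.65 ± 0.10, while Etv5 was higher with shRNA1 (0.46 ± 0.11). For Etv4 and Spry4, the shRNA2 arrays overlapped the Empty Vector arrays and the shRNA1 arrays were lowest.

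Polycomb subunits and lineage markers were called in both directions, beside 7.82% and 4.59% of all genes. Of 32 Polycomb subunits, 3 were higher with shRNA1 and 2 with shRNA2, and Bmi1, a subunit of Polycomb repressive complex 1, had 129 and 141 with shRNA1, 300 and 292 with shRNA2, and 206 and 210 with Empty Vector (-1.13 ± 0.10, adjusted p = 0.00122). Of the 7 genes the study followed as Polycomb targets, Ppp1r3c and Fos were higher with shRNA1, but both lost the call without any 1 of the 4 Smc3 shRNA arrays, and Fos also with an offset of 16 before log2. That list was chosen by the study on these samples. Neurod1, a neuronal transcription factor, had 415 and 452 with shRNA1, 149 and 126 with shRNA2, and 160 and 191 with Empty Vector (1.66 ± 0.13), and Map2, of neuronal microtubules, was dim and differed by 1.47 ± 0.14. Of 16 ectoderm, 19 mesoderm and 22 endoderm markers, 2, 2 and 3 were higher with shRNA1 and 1, 0 and 1 with shRNA2. Of 7 two-cell-like markers, 4 were higher with shRNA1, with a median of 0.62 against 0.30 between the Empty Vector arrays, and Usp17la was the brightest, with 2978 and 2774, 1657 and 1499, and 1304 and 1637.

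Cohesin and its regulators were called about as rarely as genes at large. Of 18 genes measured, 1 was higher with shRNA1 and 1 with shRNA2, beside 7.82% and 4.59% of all genes. The other 16, Smc3 among them, were not called, and the median was 0.00. Rad21, the kleisin that closes the ring, had 2269 and 2268 with shRNA1, 2276 and 2258 with shRNA2, and 2400 and 2640 with Empty Vector. Stag2, a core subunit, had 1404 and 1395 with shRNA1, 1063 and 1170 with shRNA2, and 692 and 723 with Empty Vector (0.33 ± 0.10, adjusted p = 0.0923), so the hairpins did not differ past the threshold while both lay above Empty Vector. Stag3, the meiotic subunit, was higher with shRNA2, with 328 and 376 beside 221 and 205 with shRNA1 and 157 and 189 with Empty Vector (-0.72 ± 0.13, adjusted p = 0.0123). Hdac8, the Smc3 deacetylase, was dim and higher with shRNA1 (0.66 ± 0.12, adjusted p = 0.013), with 61.8 and 52.5 beside 37.5 and 34.7.

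The remaining lists are read against the same 7.82% and 4.59% of all genes. Unfolded protein and amino acid stress genes were higher with shRNA2 in 4 of 36 (Slc7a3, Sel1l, Chac1 and Sesn2) and with shRNA1 in 1 (Phgdh, the first enzyme of serine synthesis). Of 18 heat shock genes, Cryab, Hspa1a and Hspa4l were higher with shRNA1 and Dnajb4 with shRNA2. Of 31 imprinted genes, Gnas was higher with shRNA1 and Magel2 with shRNA2, and of 5 replication-dependent histone genes measured, H2bc21 was higher with shRNA1.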

How the data were processed

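For each probe set the authors deposited a linear RMA intensity computed from the scans, and the RMA version is not given in the sources used here. These were put on the log2 scale, and linear models with a mean for every group were moderated by limma 3.58.1 under R 4.3.3, without covariates. The 6 arrays of Empty Vector, Smc3 shRNA1 and Smc3 shRNA2 gave the comparison of the hairpins, with 3 residual degrees of freedom before moderation. The comparison with the Empty Vector difference used all 10 arrays, with each Empty Vector array as its own group. Tests were two-sided, with Benjamini-Hochberg adjustment over 45037 probe sets (45101 less 64 controls), called under 0.05. No filter on intensity was applied. Errors are standard errors from these fits.

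Platform annotation gave 1 symbol for 34945 probe sets, several for 932 and none for 9160. A list gene was read on its brightest probe set, and 31 genes stand in more than 1 list. The members of the 28 lists, the comparison and its alternatives were chosen with earlier results of these data known. Genes named were Smc3 and cohesin; in each direction the 15 with the widest gap between the arrays of the hairpins (mean log2 at least 6 with the higher hairpin) and the 10 widest with the Empty Vector arrays within 0.25; and up to 4 called members of a list. The scripts were tested on simulated data. Replicate numbers did not pair the arrays: same-numbered arrays deviated together with correlations of -0.16, 0.06 and -0.02. Promoter letters came from RefSeq tables of GRCm38.p6. Array number limits the precision of every value.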

Additional observations from a re-analysis of the deposited data

Results flagged for a closer look

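For 348 probe sets the hairpin difference departed from the difference between the Empty Vector arrays, 229 towards shRNA1 and 119 towards shRNA2, by a test of the difference itself. Among the genes named, those departing by over 4-fold were Gbp2 (3.79 in log2), Gbp2b (3.09), Krt19 (2.56), Stx3 (2.43), Gbp3 (2.32), Psmb8 (2.24), Cldn7 (2.18), Gbp7 (2.15) and Tmem30b (2.13) towards shRNA1. Towards shRNA2 they were Gm7008 (-2.49), 0610040B10Rik (-2.41), Dusp4 (-2.29), Rcor3 (-2.09, on 1 of its probe sets) and Dzip3 (-2.03).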

How the results depend on the processing

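The count of probe sets higher with shRNA2 was 2736 with only the 4 Smc3 shRNA arrays, with which leaving out either Empty Vector array gave the same value. Over the left-out arrays the counts were 563 to 3392 with shRNA1 higher and 275 to 2736 with shRNA2 higher. The methods' t-test on the 4 arrays gave 4286 and 3997 at an unadjusted p under 0.05, and 0 and 0 after Benjamini-Hochberg, where limma had 10890 at an unadjusted p under 0.05. Calls past the Empty Vector difference, towards shRNA1 and shRNA2, were 596 and 367 with an offset of 16 before log2, 736 and 471 without dim probe sets, 1055 and 677 with an intensity trend, and 82 and 47 on the 6 arrays. Single left-out Smc3 shRNA arrays gave 28 to 41 and 16 to 25, with the lone array assumed to vary like the other groups. Left-out arrays also moved the hypoxia count from 21 to between 3 and 9. The cause was not tested. The replicate block gave 2338 and 1583 hairpin calls, and Smc3 was not called under any alternative run. Of 112 named genes tested, none reversed under the alternative fits by limma. They were named for arrays that did not overlap between hairpins, or for a call on these data. Where the arrays do not overlap, leaving out 1 array cannot turn the sign, so the lack of reversals is no support. Many lost the call when 1 Smc3 shRNA array was left out. The t-test was run for the counts alone, and after Benjamini-Hochberg it called none of these genes. With 2 arrays a group, and 59.6% to 60.0% of probe sets dim, small differences could not be shown.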
